A study of Mus musculus with 12 samples.

Results

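The expression of 9 genes known as markers of fat cells (Adipoq, Cfd, Retn, Lep, Plin1, Cidec, Cidea, Car3 and Cyp2e1) was followed across mouse hearts after aortic constriction or sham surgery. The genes were taken by symbol from a table of 27179 genes, and all 9 were found. They had been selected on their normalized values in the same 12 libraries, in which sham and TAC hearts differed, so those values are given as a description, with no test.

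Hearts came from 2 substrains, Balb/cJ and Balb/cByJ, of which the latter has a deletion in Acads, the gene of a mitochondrial enzyme that oxidises short-chain fatty acids. Mice of both strains had either sham surgery or transverse aortic constriction (TAC), in which the aortic arch is narrowed and the left ventricle must pump against a raised pressure. All 4 groups ate a diet with 10 kcal% fat, started 4 days before surgery, and hearts were collected 1 week after it. Each group held 3 libraries of RNA from heart tissue. The labels do not say whether atria, great vessels or the fat around the heart were trimmed away.

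Fat cells store triglyceride in a single large lipid droplet and release fatty acids between meals. They also work as endocrine cells, which secrete adiponectin, leptin and other factors into the blood. On the heart, fat lies mainly under the epicardium, in the groove between atria and ventricles and around the great vessels, while the heart muscle cells themselves burn fatty acids and hold only small lipid droplets.

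Values are read counts that the authors had scaled per library and rounded, called normalized values here. Their sum per library ran from 25161466 to 34157613, and libraries of the same group correlated at r = 0.974 or more across genes. The strain labels were read at Zhx2, a repressor gene known to differ between BALB/c substrains. All 6 Balb/cJ libraries had Zhx2 values from 21 to 47, and 5 Balb/cByJ libraries had values from 728 to 838. The library labelled TAC Balb/cByJ 6 had a value of 48, so its strain label is in doubt. Some of the TAC Balb/cByJ means, differences, correlations and calls are therefore also given without it. The heart label held, since 6 ventricular muscle genes summed to 1300458 or more in every library.

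The promoters of the fat cell genes are shown because most of these genes moved together across the libraries. RefSeq windows on GRCm38.p6, which reach from 250 bases before to 50 bases after a start site, were found for 7 of the 9 genes. The 4 printed here stand for a secreted hormone, a droplet coat protein, an enzyme and a secreted protease. Each is written 5′ to 3′ on the gene's strand, and capitals mark matches to the motifs named after them.
Adipoq, chr16:23146286-23146585, plus strand: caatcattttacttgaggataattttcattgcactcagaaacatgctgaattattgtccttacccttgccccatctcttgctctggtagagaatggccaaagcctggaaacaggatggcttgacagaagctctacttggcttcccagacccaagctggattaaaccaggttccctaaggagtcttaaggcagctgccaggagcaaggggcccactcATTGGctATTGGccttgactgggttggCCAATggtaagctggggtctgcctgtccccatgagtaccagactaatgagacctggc
Plin1, chr7:79732727-79733026, minus strand: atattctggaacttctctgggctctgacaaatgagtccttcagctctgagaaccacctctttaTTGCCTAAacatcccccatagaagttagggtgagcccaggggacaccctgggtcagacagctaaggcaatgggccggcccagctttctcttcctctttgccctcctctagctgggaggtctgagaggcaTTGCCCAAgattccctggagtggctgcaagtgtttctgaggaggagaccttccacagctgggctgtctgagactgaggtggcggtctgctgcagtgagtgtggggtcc
Cyp2e1, chr7:140763569-140763868, plus strand: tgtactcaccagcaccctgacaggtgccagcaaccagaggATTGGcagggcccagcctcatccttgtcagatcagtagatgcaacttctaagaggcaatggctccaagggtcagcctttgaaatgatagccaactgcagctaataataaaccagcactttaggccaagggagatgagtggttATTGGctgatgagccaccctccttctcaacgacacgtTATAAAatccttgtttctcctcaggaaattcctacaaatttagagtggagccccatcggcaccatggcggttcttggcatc
Cfd, chr10:79890603-79890902, plus strand: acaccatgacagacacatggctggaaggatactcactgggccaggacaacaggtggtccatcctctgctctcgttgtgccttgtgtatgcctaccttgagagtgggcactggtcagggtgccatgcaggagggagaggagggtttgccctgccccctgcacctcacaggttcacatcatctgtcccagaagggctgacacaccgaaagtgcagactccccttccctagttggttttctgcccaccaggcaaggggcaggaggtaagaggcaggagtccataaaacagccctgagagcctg

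Both strands were searched for 5 motifs. The PPAR-RXR direct repeat, a pair of AGGNCA half-sites with 1 base between them, to which the master regulator of fat cell formation binds, occurred in 0.381% of all 32851 promoter windows and in none of the windows of these genes. Its half-site AGGTCA occurred in 16.3% of all windows and in none of these. The C/EBP motif TTGCNNAA, found in 10.8% of all windows, had a pair of matches in the Plin1 promoter, which began 187 and 58 bases before the start site. It had 1 match each in the Lep promoter and in 1 of the 2 Cidec windows. CCAAT, found in 37.4% of all windows, had 3 matches in the Adipoq promoter within 34 bases of the start site, and 2 in that of Cyp2e1. The sequence TATAAA, found in 13.6% of all windows, occurred in the Cyp2e1 promoter 31 bases before the start site. The Cfd and Retn windows held none of the 5 motifs. A match is a description of the letters only, and the windows shared no single motif among the 5.

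Among the secreted proteins, Adipoq encodes adiponectin, a hormone made almost only by fat cells, and lies on chromosome 16 at 23146536 to 23157968 (mm10, plus strand, 3 exon blocks). Adipoq values in libraries 1, 2 and 3 of sham Balb/cJ were 4, 2 and 3, and those in libraries 4, 5 and 6 of TAC Balb/cJ were 33, 208 and 108. In Balb/cByJ, libraries 1, 2 and 3 after sham surgery had values of 44, 23 and 2, and libraries 4, 5 and 6 after TAC had 45, 372 and 105. The sham Balb/cJ hearts were near 0 throughout, whereas sham Balb/cByJ 1 and 2 held 44 and 23. The lowest TAC hearts had 45 in Balb/cByJ and 33 in Balb/cJ. The mean was 3.0 ± 1.0 (SD, n = 3) in sham Balb/cJ, 116.3 ± 87.8 in TAC Balb/cJ, 23.0 ± 21.0 in sham Balb/cByJ and 174.0 ± 174.1 in TAC Balb/cByJ, so that the spread within a TAC group was nearly as large as its mean. The last mean was 208.5 (n = 2) without the library labelled TAC Balb/cByJ 6.

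Cfd encodes adipsin, also called complement factor D, a serine protease that fat cells secrete in large amounts. It lies on chromosome 10 at 79890853 to 79892656 (plus strand). In sham Balb/cJ it was measured at 15, 7 and 7, and in TAC Balb/cJ at 189, 1112 and 483. In sham Balb/cByJ it was at 163, 69 and 5, and in TAC Balb/cByJ at 171, 1407 and 341. The order of the libraries within each group apart from sham Balb/cJ was the same as for Adipoq.

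Retn, which encodes resistin, a hormone of mouse white fat (chromosome 8), was measured at 2, 0 and 0 in sham Balb/cJ and at 11, 73 and 67 in TAC Balb/cJ. In Balb/cByJ it was at 23, 9 and 0 after sham surgery and at 5, 102 and 37 after TAC. The groups did not overlap in Balb/cJ. In Balb/cByJ they did, because TAC library 4 lay below sham libraries 1 and 2. Lep, which encodes leptin, the satiety hormone that reports the size of the fat stores (chromosome 6), was listed at 0 in all 3 sham Balb/cJ libraries and at 4, 16 and 3 in TAC Balb/cJ. It was at 5, 5 and 0 in sham Balb/cByJ and at 1, 55 and 10 in TAC Balb/cByJ. Its mean of 8.25 over all libraries was under the minimum of 10 set for the fit, so no difference was computed for it.

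Of the lipid droplet proteins, Plin1 encodes perilipin 1, the coat protein that controls the access of lipases to the droplet of fat cells. It lies on chromosome 7 at 79721164 to 79732776 (minus strand). Its values were 4, 1 and 10 in sham Balb/cJ and 27, 153 and 79 in TAC Balb/cJ. After sham surgery in Balb/cByJ they were 25, 25 and 0, and after TAC 29, 318 and 71. Every TAC heart thus lay above every sham heart of its strain, in Balb/cByJ by a margin of only 4 between the nearest libraries (29 against 25).

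Cidec, known as Fsp27 in mice, makes a protein that fuses small droplets into a large one (chromosome 6, 113424636 to 113435755, minus strand). It was measured at 2, 2 and 4 in sham Balb/cJ and at 56, 241 and 150 in TAC Balb/cJ. It was at 41, 29 and 1 in sham Balb/cByJ and at 44, 399 and 150 in TAC Balb/cByJ. TAC library 5 was the highest of its group in both strains, as for the other genes above.

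Cidea, a relative of Cidec that is best known from brown fat, had another pattern than the other 8 genes. It lies on chromosome 18 and was measured at 569, 878 and 753 in sham Balb/cJ and at 693, 726 and 637 in TAC Balb/cJ. In Balb/cByJ it was at 860, 732 and 807 after sham surgery and at 654, 782 and 521 after TAC. All 12 libraries lay between 521 and 878, and the groups overlapped. Cidea was the only one of the 9 genes with a high level in the sham Balb/cJ hearts, where its mean per kilobase of exon was 630.0 and those of the others were at most 10.5.

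The remaining pair are enzymes that are abundant in fat. Car3 encodes carbonic anhydrase 3, a cytosolic enzyme found at high levels in fat cells and in slow skeletal muscle (chromosome 3, 14863538 to 14872381, plus strand). Its values were 9, 4 and 13 in sham Balb/cJ and 232, 1219 and 693 in TAC Balb/cJ. They were 232, 155 and 15 in sham Balb/cByJ and 252, 2819 and 573 in TAC Balb/cByJ. Its exons overlap by 792 bases with an unnamed gene on the other strand, and since the strand setting of the counting is not given in the sources used here, part of its reads may belong to that gene. A list of 8 skeletal muscle genes summed to 62 to 74 in sham Balb/cJ and to at most 334 in any library. It holds no gene particular to slow muscle and so cannot gauge it. The part of muscle RNA in the Car3 values was not tested.

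Cyp2e1 encodes a cytochrome P450 that oxidises ethanol and acetone, known mostly from the liver and also expressed in fat (chromosome 7, 140763832 to 140774981, plus strand). It was at 14, 1 and 4 in sham Balb/cJ, at 113, 629 and 295 in TAC Balb/cJ, at 77, 96 and 9 in sham Balb/cByJ and at 116, 925 and 270 in TAC Balb/cByJ. A list of 7 liver genes summed to 18 to 45 in every library, with Alb at 0 or 1 and Fgb at 0. The part of liver RNA in the Cyp2e1 values was not tested.

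**Figure D1:**
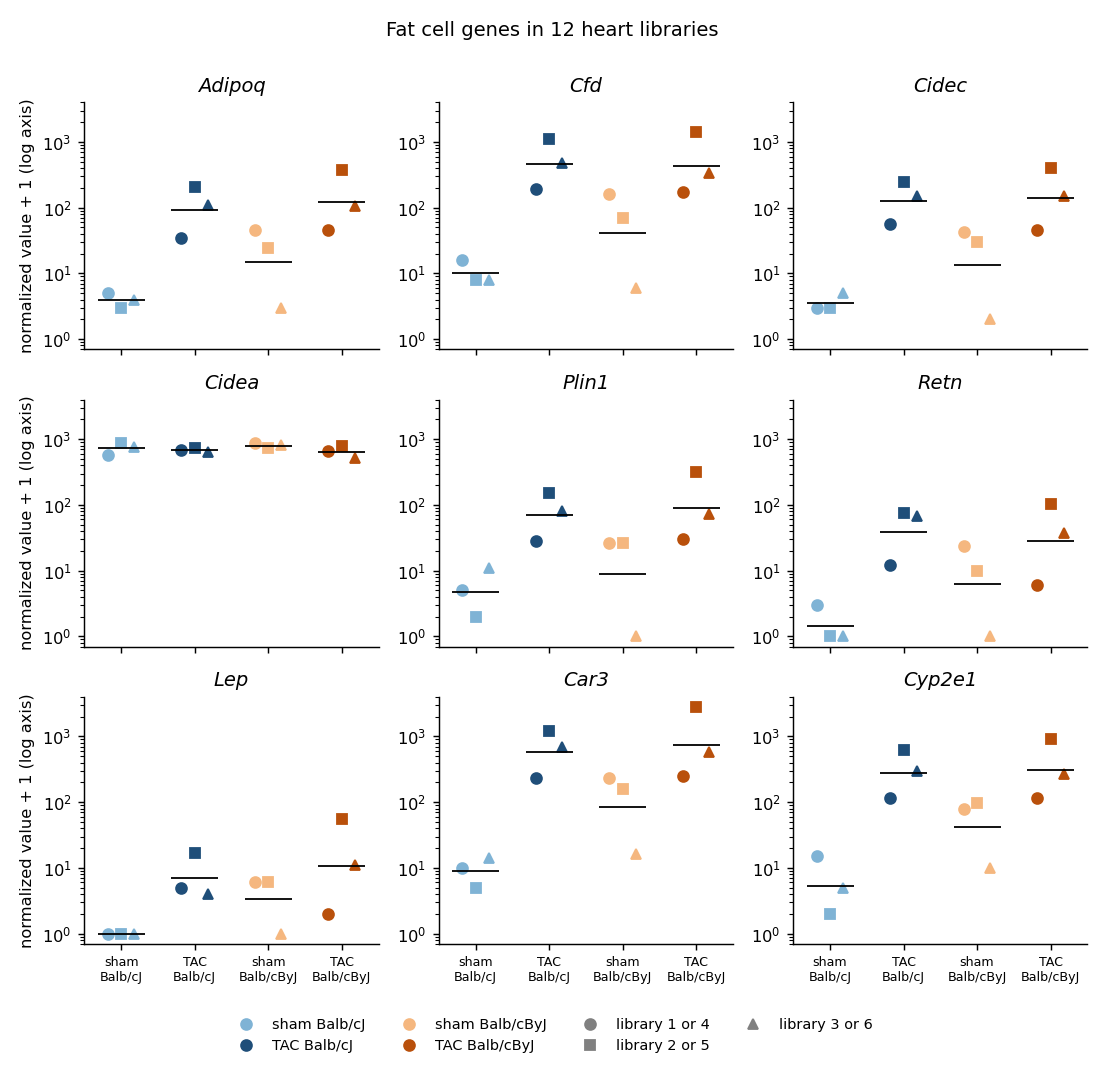
Normalized value + 1 on a log axis for the 9 fat cell genes, with 1 point per library, the 4 groups of 3 side by side and a black line at each group's mean on the log scale. In 8 of the 9 panels the sham Balb/cJ points lie near the floor and the TAC points spread widely above them, while the 12 points of Cidea stay between 521 and 878.

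Levels could be compared between genes only per kilobase of exon. In TAC Balb/cJ the mean normalized value per kilobase was highest for Cfd (644.3), then Cidea (588.8), Car3 (465.0), Cyp2e1 (198.7), Adipoq (94.4), Cidec (87.5), Plin1 (45.1), Retn (39.1) and Lep (2.35). In TAC Balb/cByJ the order of the first few was Car3 (790.3), Cfd (693.0), Cidea (560.4) and Cyp2e1 (251.1), followed by Adipoq (141.2), Cidec (116.1), Plin1 (72.7), Retn (37.3) and Lep (6.76). Within these groups the spread between libraries was wider than most gaps between neighbours in this order. The order in TAC Balb/cByJ was the same without the library labelled TAC Balb/cByJ 6, from 999.0 for Car3 and 854.8 for Cfd to 8.60 for Lep.

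The TAC and sham hearts were then compared as differences on the log2(value + 1) scale, fitted in all 12 libraries. These differences are a description, since the genes had been chosen with this contrast known. In Balb/cJ, TAC hearts exceeded sham hearts by 6.03 ± 1.02 (log2, ± SE) for Car3, 5.70 ± 1.00 for Cyp2e1 and 5.54 ± 1.07 for Cfd. Cidec followed at 5.17 ± 1.04, Retn at 4.77 ± 1.22, Adipoq at 4.55 ± 0.97 and Plin1 at 3.87 ± 1.22. Cidea stood at -0.08 ± 0.17, and its sign turned to 0.14 when all libraries were rescaled to the same total. The median of the 8 fitted genes was 4.97, beside 0.00 for all 14038 genes in the fit. Since the sham values lay close to 0, these sizes depend on the pseudocount: with 5 in place of 1, Retn came to 3.0 and Adipoq to 3.61. When each library was left out in turn, Adipoq ran from 3.96 to 5.27, Car3 from 5.50 to 6.70 and Cidea from -0.25 to 0.06.

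In Balb/cByJ the same differences were smaller, at 3.41 for Cfd, 3.36 for Cidec, 3.33 for Plin1, 3.15 for Car3, 3.04 for Adipoq, 2.87 for Cyp2e1 and 2.20 for Retn, with a median of 3.10. Cidea stood at -0.31 ± 0.17. Without the library labelled TAC Balb/cByJ 6 the positive differences were close to these values. They were 3.59 for Cfd, 3.30 for Cidec, 3.48 for Plin1, 3.34 for Car3, 3.15 for Adipoq, 2.96 for Cyp2e1 and 2.00 for Retn. Cidea stood at -0.16 without that library. The positive differences rested more on sham Balb/cByJ 3, the sham heart with the lowest values. Without it they were 2.02 for Cfd, 1.98 for Cidec, 1.76 for Plin1, 1.96 for Car3, 1.89 for Adipoq, 1.83 for Cyp2e1 and 0.89 for Retn. Every TAC library exceeded every sham library for 8 of the 9 genes in Balb/cJ, where the same held for 18.8% of all genes fitted. In Balb/cByJ it held for 6 of the 9 genes, beside 16.4% of all genes. The rule that chose the genes used this contrast, so nothing is read from those counts.

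The strains were also set side by side. After sham surgery, Balb/cByJ hearts exceeded Balb/cJ hearts by 3.23 (log2) for Car3, 2.99 for Cyp2e1, 2.11 for Retn, 2.02 for Cfd, 1.94 for Cidec, 1.92 for Adipoq and 0.87 for Plin1. These differences came from sham Balb/cByJ libraries 1 and 2. In sham Balb/cByJ 3 the 8 genes other than Cidea summed to 32, within the 17 to 50 of the sham Balb/cJ libraries, whereas libraries 1 and 2 reached 610 and 411. Without sham Balb/cByJ 3 the differences were larger, at 3.07 for Adipoq and 3.41 for Cfd, and without sham Balb/cByJ 1 they were smaller, at 1.12 and 1.02, with Plin1 at 0.09. After TAC the strain differences of the fitted genes ran from -0.45 ± 1.22 for Retn to 0.41 ± 0.97 for Adipoq, smaller than their errors. They ran from -0.66 for Retn to 0.54 for Car3 without the library labelled TAC Balb/cByJ 6. Leaving out TAC Balb/cByJ 5 or 4 took Retn from -1.38 to 0.67 and Adipoq from -0.40 to 1.11. Subtracting the Balb/cJ difference for TAC from the Balb/cByJ one gave -2.88 ± 1.44 for Car3, -2.84 ± 1.42 for Cyp2e1, -2.56 ± 1.73 for Retn, -2.13 ± 1.51 for Cfd, -1.81 ± 1.47 for Cidec, -1.51 ± 1.38 for Adipoq and -0.54 ± 1.73 for Plin1. Without the library labelled TAC Balb/cByJ 6 these values ran from -2.77 for Retn to -0.39 for Plin1 over the same genes. Without sham Balb/cByJ 1, Plin1 turned to 0.24, Adipoq was -0.71, Cfd -1.13 and Cidec -0.99. Without sham Balb/cByJ 3, Adipoq was -2.66, Cfd -3.51, Cidec -3.19, Plin1 -2.11 and Retn -3.88. Without TAC Balb/cByJ 4, Retn was -1.43. Myl7 stood at -8.00 ± 2.09 in the same contrast.

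The authors' deposited table holds shrunken log2 fold changes for TAC against sham in each strain. In the authors' deposited table Cidec had 2.99 in Balb/cJ and 0.34 in Balb/cByJ, Adipoq 2.47 and 0.38, and Lep 0.70 and 0.40. For Cidea the authors' deposited table gave -0.09 and -0.27. Shrinkage pulls the estimates of variable genes towards 0, and the values above carry none.

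The libraries differed far more than the group means show. Summed over the 8 genes other than Cidea, the normalized value was 50, 17 and 41 in sham Balb/cJ and 665, 3651 and 1878 in TAC Balb/cJ. It was 610, 411 and 32 in sham Balb/cByJ and 663, 6397 and 1557 in TAC Balb/cByJ. TAC library 5 held the highest value of its group for all 8 genes in both strains. TAC Balb/cByJ 4 and sham Balb/cByJ 3 each held the lowest value of their group for all 8, and TAC Balb/cJ 4 for 7 of 8. In bulk tissue, fewer fat cells and less RNA per fat cell cannot be told apart.

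Relative to Adipoq, several of the genes kept a narrow ratio in the 8 libraries where Adipoq reached 20, a limit chosen after the values were seen. Car3 stood at 5.27 to 7.58 times Adipoq, Cidec at 0.932 to 1.70, Cfd at 3.0 to 5.73, Plin1 at 0.568 to 1.09 and Cyp2e1 at 1.75 to 4.17. The highest ratio exceeded the lowest by 1.44 times for Car3 and by at most 2.39 times for the other 4. Retn and Lep, with low values, varied more (5.58 and 9.78 times). Cidea varied by 15.1 times against Adipoq, from 2.10 to 31.8. The 8 libraries are the 6 TAC libraries and 2 sham Balb/cByJ libraries. For each of the 5 narrow ratios the lowest value was in a sham library, such as 0.568 for Plin1 beside 0.644 to 0.855 in the TAC libraries, and for Plin1 and Cyp2e1 the highest was too.

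**Figure D2:**
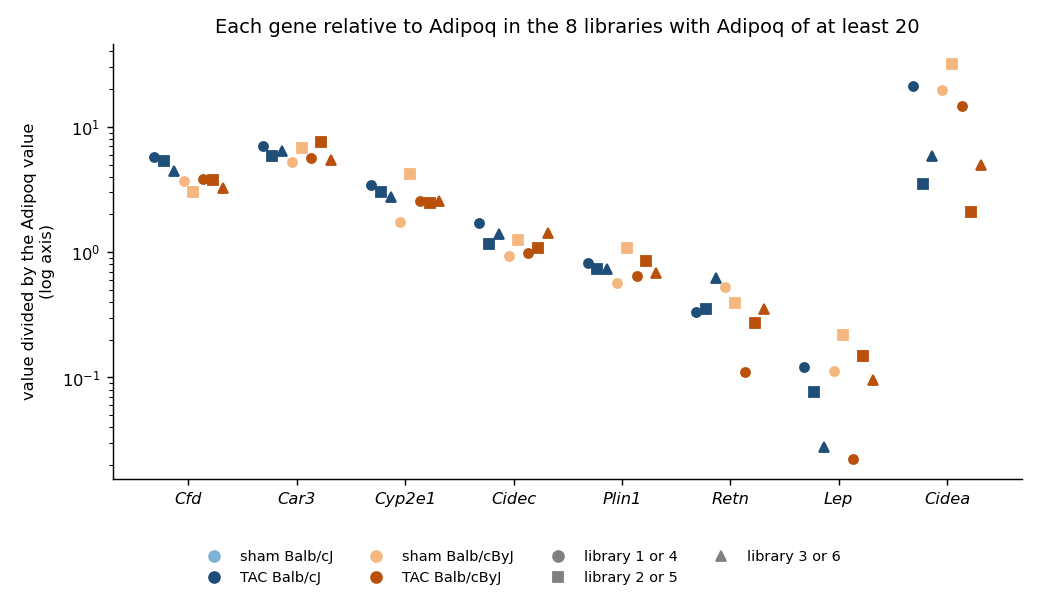
Each gene's normalized value divided by that of Adipoq in the same library, on a log axis, for the 8 libraries where Adipoq reached 20. Points of Car3, Cidec, Cfd, Plin1 and Cyp2e1 lie in narrower bands than those of Retn, Lep and Cidea, and those of Cidea spread from 2.10 to 31.8.

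Across the 12 libraries, the log2 profile of each gene was compared with the mean profile of the other 8, as a description. Pearson's r was 0.98 for Adipoq, Cidec and Car3, 0.97 for Cfd, 0.95 for Retn, 0.94 for Plin1 and Cyp2e1 and 0.93 for Lep. For Cidea it was -0.24. It was 0.91 or more for the 8 genes and -0.13 for Cidea without the library labelled TAC Balb/cByJ 6. The sham Balb/cJ libraries lie together at the low end and add to these values, and the points share their libraries and scaling.

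Myl7, which encodes the atrial light chain of myosin and marks atrial muscle, was read as a measure of tissue attached to the ventricles. Myl7 was measured at 6, 13 and 11 in sham Balb/cJ and at 2381, 15126 and 9598 in TAC Balb/cJ. Its values were 4670, 14508 and 237 in sham Balb/cByJ and 640, 30930 and 14285 in TAC Balb/cByJ. The sham Balb/cJ hearts thus held almost no atrial RNA, and TAC library 5 held the most in each strain. The list of 6 atrial genes, Nppa included, had sums of 9074 to 19366 after sham and 40498 to 151761 after TAC in Balb/cJ. In Balb/cByJ the sums were 5069 to 110481 after sham and 22864 to 230744 after TAC. Nppa is also made by loaded ventricles.

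The libraries with the lowest Myl7 in each group other than sham Balb/cJ (TAC Balb/cJ 4, sham Balb/cByJ 3 and TAC Balb/cByJ 4) were those with the lowest sums of fat cell genes. Over the 9 libraries outside sham Balb/cJ, r with Myl7 ran from 0.78 for Cfd to 0.89 for Retn, and was -0.20 for Cidea. Over all 12 it ran from 0.79 for Plin1 to 0.92 for Car3, with Cidea at -0.10. Without the library labelled TAC Balb/cByJ 6 it ran from 0.78 for Plin1 to 0.92 for Car3 over 11 libraries, with Cidea at 0.08. Among the 14030 fitted genes outside the 9 fat cell genes, Myl7 ranked 16 in likeness to the mean profile of all 9, Lep and Cidea included (r = 0.905). That r ran from 0.886 to 0.932 when each library was left out in turn. Myl4, another atrial myosin light chain, ranked 5 (r = 0.923), Sln, an atrial regulator of the calcium pump, ranked 34, and the mesothelial gene Upk3b ranked 974 (r = 0.707).

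The amounts of fat cell and atrial RNA were not in a fixed ratio. Per 1000 of Myl7, Adipoq stood at 13.9, 13.8 and 11.3 in the TAC Balb/cJ libraries, a close match. In sham Balb/cByJ it stood at 9.42, 1.59 and 8.44, and in TAC Balb/cByJ at 70.3, 12.03 and 7.35. The ratio spanned 44.4 times over the 9 libraries with Myl7 of at least 100, against 1.44 to 2.39 times for the 5 narrow ratios among fat cell genes. Sham Balb/cByJ 2 had much Myl7 (14508) and a low Adipoq (23), and TAC Balb/cByJ 4 had little Myl7 (640) and an Adipoq of 45. From TAC Balb/cByJ 4 to TAC Balb/cByJ 5, Myl7 differed by 48.3 times and the fat cell genes other than Cidea and Lep by 7.97 (Cyp2e1) to 20.4 times (Retn), while Lep was at 1 and 55, whereas in Balb/cJ the same step was 6.35 times for Myl7 and 4.00 to 6.64 times for the fat cell genes other than Cidea.

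**Figure D3:**
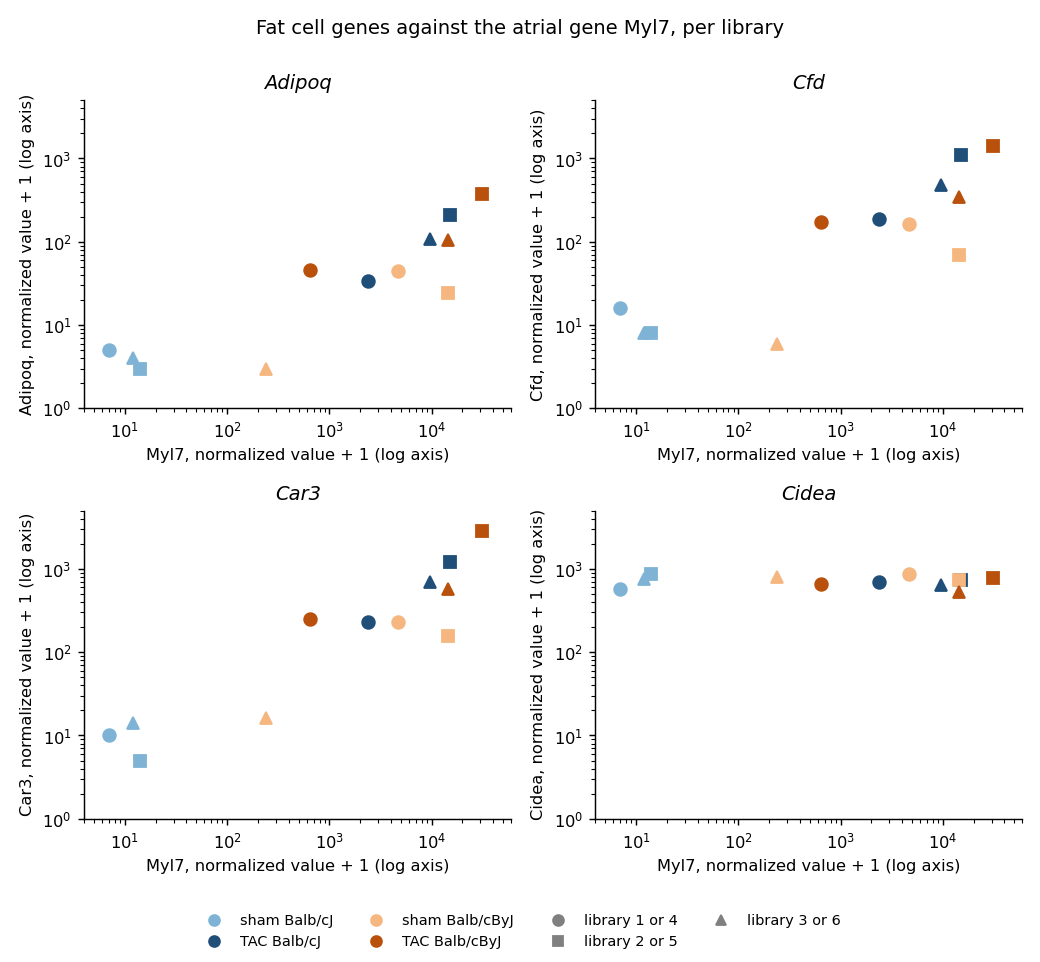
Normalized value + 1 of Adipoq, Cfd, Car3 and Cidea against that of Myl7 + 1, with both axes logarithmic and 1 point per library coloured by group. For Adipoq, Cfd and Car3, sham Balb/cJ points sit at the lower left with Myl7 at 6 to 13. Points of these genes climb towards TAC Balb/cByJ 5 at the upper right, and Cidea runs flat.

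When log2 Myl7 was added to the fit as a covariate, the TAC difference in Balb/cJ changed from 4.55 to -0.62 for Adipoq, from 5.17 to -0.79 for Cidec, from 3.87 to -2.61 for Plin1 and from 4.77 to -1.62 for Retn. It fell to 0.03 for Cfd, 0.54 for Car3 and 0.91 for Cyp2e1. With Myl7 on a linear scale instead, the Balb/cJ differences stayed at 3.44 for Adipoq, 4.39 for Cfd, 3.99 for Cidec, 2.52 for Plin1, 3.41 for Retn, 4.81 for Car3 and 4.56 for Cyp2e1. In Balb/cByJ, where sham and TAC hearts overlap in Myl7, the log2 covariate left 2.28 for Adipoq, 2.60 for Cfd, 2.48 for Cidec, 2.38 for Plin1, 2.35 for Car3, 2.16 for Cyp2e1 and 1.27 for Retn, and the linear one 1.96 for Adipoq, 2.29 for Cfd and 0.88 for Retn. The sham strain differences of all 7 genes changed sign with the log2 covariate, from -1.05 for Cyp2e1 to -4.59 for Plin1, and so did the differences between the strains' responses, from 1.25 for Cyp2e1 to 4.99 for Plin1. Within Balb/cJ, however, Myl7 lay at 6 to 13 in all sham hearts and at 2381 or more in all TAC hearts. The surgery and the attached atrial tissue therefore cannot be told apart in that strain.

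The genes most like the mean profile of all 9 fat cell genes were taken as 10 with the highest r over 12 libraries. Genes without a symbol, predicted genes and genes under a stricter mean minimum than that of the fit were left out first. The list is therefore not the top 10 of all genes fitted. It began with Rbp4 (r = 0.975), which encodes retinol binding protein, a carrier that fat cells also secrete. Its values ranged from 16 to 265. Scd1, a fatty acid desaturase (0.935, 484 to 11551), Myl4 (0.923, 100 to 50886), Cdo1, which breaks down cysteine (0.921, 35 to 564), and Ptgis, prostacyclin synthase (0.919, 624 to 2031), were also among them. Further genes were Slc2a10, a sugar transporter (0.915), Adamts8, a secreted metalloprotease (0.910), and Mybphl, a myosin binding protein of the atria (0.907, 45 to 5130). Cers5 (0.930) and Faf2 (0.920) varied little in level, from 765 to 937 and from 513 to 661. Of the 10, Myl4 and Mybphl are atrial.

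A wider set of 102 genes of fat cell biology, sorted by role into 6 lists, was tested with limma at an adjusted p under 0.1 over all 14038 genes. The members of these lists are not the 9 genes above, and 83 of them passed the mean minimum. In Balb/cJ, 17 of 83 were higher after TAC and 14 lower, with 52 not passing, while 15.3% of all genes fitted were higher and 16.2% lower. The share of genes that changed was thus near that of all genes, and the median difference of the 83 was -0.12. In Balb/cByJ, 17 of 83 were higher and 5 lower, beside 7.81% and 4.76% of all genes, with a median of -0.07. When all libraries were rescaled to the same total, the median of all genes moved by 0.21 in Balb/cJ and by 0.16 in Balb/cByJ. The split of the 83 became 22 higher and 11 lower in Balb/cJ and 22 higher and 0 lower in Balb/cByJ. Of all 14060 genes in the rescaled fit, 3946 were higher and 891 lower in Balb/cJ. In Balb/cByJ 1638 of them were higher and 229 lower. Many of these genes are also strongly expressed in hearts with almost no Adipoq: in sham Balb/cJ, Lpl lay at 103731 to 114965, Cd36 at 34594 to 39315 and Fabp4 at 18588 to 25195.

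Other secreted factors of fat had 4 of 13 genes higher and none lower in Balb/cJ, and the same counts in Balb/cByJ. Of all genes fitted, 15.3% were higher and 16.2% lower in Balb/cJ, and 7.81% and 4.76% in Balb/cByJ. Rbp4 was at 16, 24 and 19 in sham Balb/cJ and at 72, 150 and 84 in TAC Balb/cJ, a rise of 2.26 ± 0.48 (limma adjusted p = 0.0112). In Balb/cByJ it was at 59, 49 and 23 and then at 65, 265 and 107 (1.57 ± 0.48, limma adjusted p = 0.0752). Apoc1, an apolipoprotein, rose by 2.54 in Balb/cJ (limma adjusted p = 0.0382), and Rarres2, which encodes the chemoattractant chemerin, rose by 0.36 (limma adjusted p = 0.0608). Hp encodes haptoglobin, which binds free haemoglobin and is made by liver and fat. It was at 150, 337 and 572 in sham Balb/cJ and at 866, 2291 and 514 in TAC Balb/cJ (1.71 ± 0.67, limma adjusted p = 0.086), and its rise in Balb/cByJ was 3.22 ± 0.67 (limma adjusted p = 0.0327).

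Regulators and identity genes of fat cells had 3 of 16 genes higher and 2 lower in Balb/cJ, and 4 higher in Balb/cByJ. The Balb/cJ counts were near the shares of all genes fitted, 15.3% higher and 16.2% lower. In Balb/cByJ 7.81% of all genes were higher. Cebpa, a transcription factor of fat cell formation, rose by 0.82 ± 0.16 in Balb/cJ (limma adjusted p = 0.0089) and by 0.90 ± 0.16 in Balb/cByJ (limma adjusted p = 0.0239). Pde3b, the phosphodiesterase through which insulin restrains lipolysis, rose by 1.10 and 1.08 (limma adjusted p = 0.00614 and 0.025). Pparg, the master regulator of fat cell formation, went the other way in Balb/cJ, where it was at 445, 477 and 347 after sham and 254, 336 and 188 after TAC. It fell by 0.73 on the log2 scale (limma adjusted p = 0.0271). Fabp4, a fatty acid carrier of fat cells that capillary endothelium also makes, fell by 0.77 (limma adjusted p = 0.0171), and in Balb/cByJ it stood at -0.05 ± 0.18 (limma adjusted p = 0.891). Nnat, a small membrane protein, rose by 3.05 in Balb/cByJ (limma adjusted p = 0.0611), from 8, 13 and 1 to 24, 108 and 51.

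Among 14 lipid droplet proteins, 4 fell and none rose in Balb/cJ, and 3 fell in Balb/cByJ, beside falls in 16.2% and 4.76% of all genes. Plin3, a droplet coat protein found in most tissues, fell by 0.55 in Balb/cJ (limma adjusted p = 0.0146), Cideb, another member of the CIDE family, fell by 0.91 (limma adjusted p = 0.027), and G0s2, an inhibitor of triglyceride lipase, fell by 0.45 (limma adjusted p = 0.089). The perilipins of heart muscle had values that did not pass: Plin5 differed by -0.66 ± 0.34 in both strains (limma adjusted p = 0.173 and 0.23), Plin2 by -0.26 and -0.15 (limma adjusted p = 0.459 and 0.709). Plin1 and Cidec, by contrast, had the positive differences given above, and no test of that contrast was made.

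In triglyceride storage and release, 2 of 16 genes were higher and 4 lower in Balb/cJ, beside 15.3% and 16.2% of all genes. Pck1, an enzyme of glyceroneogenesis in fat, was at 2, 0 and 2 in sham Balb/cJ and at 27, 48 and 34 in TAC Balb/cJ (4.13 ± 1.13, limma adjusted p = 0.0261). It reached 361 in TAC Balb/cByJ 5, where the Balb/cByJ difference of 2.67 ± 1.13 did not pass (limma adjusted p = 0.159). Gpihbp1, which holds lipoprotein lipase on capillaries, fell by 1.00 in Balb/cJ (limma adjusted p = 0.00537), and Aqp7, a glycerol channel, fell by 0.97 (limma adjusted p = 0.0263). The lipases Lipe and Pnpla2 gave -0.28 and -0.44 in Balb/cJ and did not pass (limma adjusted p = 0.545 and 0.139). Acsl1 fell in Balb/cByJ by 0.63 (limma adjusted p = 0.0814), the single call of this list there.

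Fatty acid synthesis had the most calls. In Balb/cJ 7 of 14 genes were higher and 1 lower, beside 15.3% and 16.2% of all genes. In Balb/cByJ 8 were higher and none lower, beside 7.81% and 4.76%. Fasn, fatty acid synthase, was at 750, 510 and 741 in sham Balb/cJ and at 1290, 2580 and 2568 in TAC Balb/cJ (1.64 ± 0.45, limma adjusted p = 0.0272). In Balb/cByJ it was at 801, 880 and 664 and then at 1077, 5504 and 2168 (1.59 ± 0.45, limma adjusted p = 0.0644). Scd2, a desaturase, rose by 1.05 in Balb/cJ and 0.92 in Balb/cByJ (limma adjusted p = 0.011 and 0.0464), and Fads2 by 0.82 and 0.74 (limma adjusted p = 0.0147 and 0.0508). Slc25a1, the mitochondrial citrate carrier that feeds the pathway, rose by 0.90 in Balb/cByJ (limma adjusted p = 0.0505). Thrsp, a regulator of lipid synthesis, was the gene of this list that passed in the other direction, and fell by 1.39 in Balb/cJ (limma adjusted p = 0.0218). Mlxipl, a glucose-responsive transcription factor, stood at -0.35 ± 0.14 and did not pass (limma adjusted p = 0.104).

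Of the brown and beige fat genes, 10 of 19 reached the mean minimum. In Balb/cJ 1 of the 10 was higher and 3 were lower, beside 15.3% and 16.2% of all genes. In Balb/cByJ 1 was higher and 1 lower, beside 7.81% and 4.76%. Dio2, which activates thyroid hormone and is also made in heart muscle, rose by 2.46 ± 0.40 in Balb/cJ (limma adjusted p = 0.00486) and by 1.80 ± 0.40 in Balb/cByJ (limma adjusted p = 0.0381). It was the only gene of this list that passed as higher in either strain. Kcnk3 fell by 0.43 in Balb/cJ (limma adjusted p = 0.0316), and Cpt1b fell by 0.47 in Balb/cByJ (limma adjusted p = 0.0839). Cox8b and Cox7a1, subunits of cytochrome oxidase that heart muscle shares with brown fat, fell by 0.93 and 0.99 in Balb/cJ (limma adjusted p = 0.00949 and 0.0165). Ucp1, the uncoupling protein that defines brown fat, stayed under the minimum, with values of 0 to 4 in 10 libraries, 12 in TAC Balb/cJ 5 and 70 in TAC Balb/cByJ 5.

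**Figure D4:**
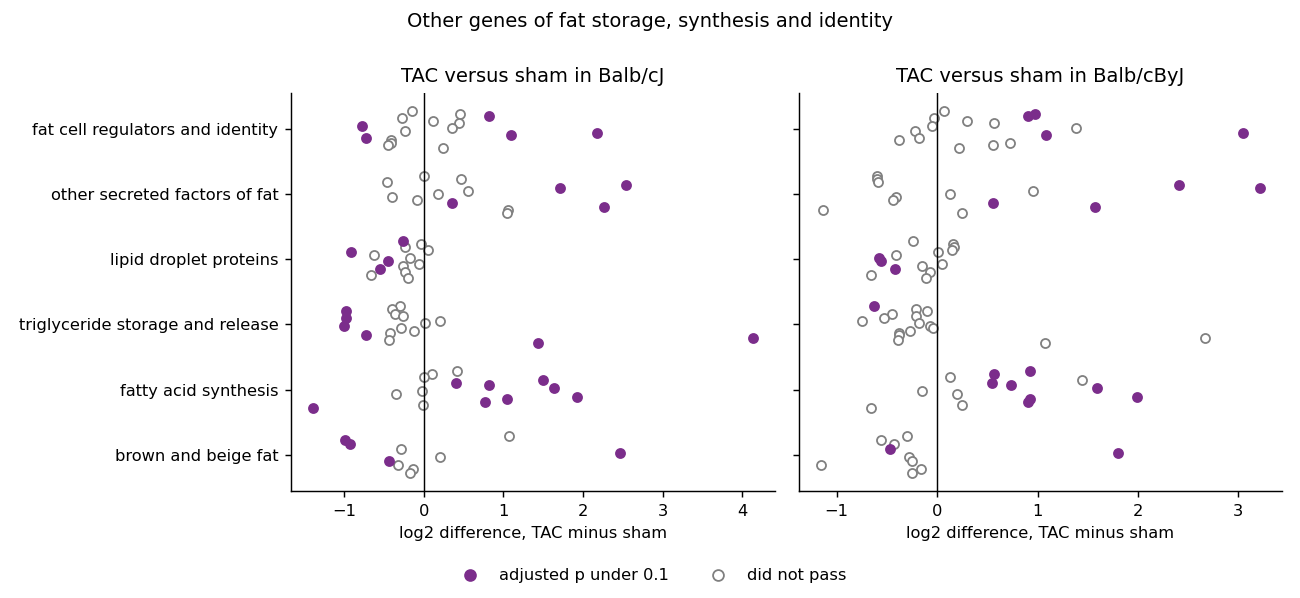
Log2 difference between TAC and sham hearts for each tested gene of the 6 role lists, with Balb/cJ and Balb/cByJ side by side. Filled points passed an adjusted p under 0.1 (limma), and fatty acid synthesis is the list with the most filled points above 0, 7 in Balb/cJ and 8 in Balb/cByJ.

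These calls moved with single libraries and with Myl7. Of the 24 genes named by the rule in Balb/cJ, 13 stayed past the threshold in every fit that left out 1 library. Among the others, Pparg was lost without sham Balb/cJ 2 or TAC Balb/cJ 6, Fasn and Pck1 without sham Balb/cJ 2, and Cideb and Aqp7 without TAC Balb/cJ 6. Apoc1, Rarres2, Hp, G0s2, Abhd5 and Kcnk3 were each lost in 2 or more of these fits. With log2 Myl7 as a covariate all 24 were lost, as was every call among all 14038 genes in Balb/cJ, while the linear covariate kept the count of related genes at 26 of the former 31. Of the 18 named in Balb/cByJ, 0 stayed past the threshold in every fit that left out 1 library. Each was lost both without sham Balb/cByJ 1 and without sham Balb/cByJ 3. Among all genes fitted, the Balb/cByJ calls went from 1097 higher and 668 lower to 6 and 0 without sham Balb/cByJ 1. They were 74 and 1 without sham Balb/cByJ 3. With total rescaling, G0s2, Abhd5 and Kcnk3 no longer passed in Balb/cJ, and in Balb/cByJ none of the genes that had fallen did. Without the library labelled TAC Balb/cByJ 6 the count in Balb/cByJ went from 22 to 8. Among all genes fitted, 558 were then higher and 130 lower. Of the 18 named genes Cebpa, Pde3b, Aoc3, Hp, Rarres2, G0s2, Slc25a1 and Dio2 still passed.

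Between the strains after sham surgery, 4 of the 83 genes were higher in Balb/cByJ and 6 lower, beside 4.27% and 4.10% of all genes fitted. Angptl4, an inhibitor of lipoprotein lipase that fat and heart make, was at 135, 160 and 81 in sham Balb/cJ and at 1408, 1403 and 708 in sham Balb/cByJ, and Retnla, a relative of resistin, was higher by 3.43. Hp was lower, at 63, 72 and 20 against 150, 337 and 572. Angptl4 was high in sham Balb/cByJ 3 too, a library in which the fat cell genes were near 0. The count of 10 was 3 without sham Balb/cJ 2 and 4 without sham Balb/cByJ 2. Among all genes fitted, 599 were higher and 576 lower in the main fit. These counts were 185 and 136 without sham Balb/cJ 2, and 211 and 200 without sham Balb/cByJ 2.

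After TAC the strains differed in 0 of the 83 genes (limma, 8 at an unadjusted p under 0.05; 0 with voom), beside 0.00712% of all genes. The strain by surgery interaction also passed in 0 of 83 (limma, 9 at an unadjusted p under 0.05; 0 with voom), beside 0.00712% of all genes. A difference between the strains in the response of these genes to TAC was therefore not detectable with 3 libraries per group. Without the library labelled TAC Balb/cByJ 6 the counts were 1 after TAC and 0 for the interaction.

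Markers of other tissues that a dissected heart can carry moved with the fat cell genes to different degrees. Of 6 atrial genes 5 were higher after TAC in Balb/cJ and 0 in Balb/cByJ, and 3 were higher in Balb/cByJ than in Balb/cJ after sham surgery. In the same comparisons 15.3%, 7.81% and 4.27% of all genes fitted were higher. Of 6 mesothelial genes, which mark the epicardial surface, 5 were higher after TAC in Balb/cJ, 0 in Balb/cByJ, and 4 between the sham groups. Both counts of 0 were also 0 without the library labelled TAC Balb/cByJ 6. Their sum was 155 to 212 after sham and 325 to 794 after TAC in Balb/cJ, and 343 to 426 after sham and 516 to 1034 after TAC in Balb/cByJ. Sham Balb/cByJ 3 had mesothelial values like those of its group (Upk3b at 98, beside 113 and 123) although its fat cell genes were near 0. Of 6 ventricular muscle genes, 2 were lower after TAC in Balb/cJ, beside 16.2% of all genes fitted. Lung genes summed to at most 2 and thymus genes to at most 13 in any library. The part of each tissue in the values of the fat cell genes was not tested.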

How the data were processed

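Libraries from total heart RNA (TruSeq Stranded mRNA kit) were sequenced on a NextSeq 500, per the labels. Reads were processed with STAR, featureCounts of the Subread package and DESeq2 on mm10, per the submitters' processing notes. For versions and the strand setting nothing is given in the sources used here. Gene values were deposited as scores, that is, rounded counts after division by each library's size factor, as gaps between their whole numbers show. Since they are not counts, no count model was run. Their sums were taken after that division and do not give the sequencing depth of a library. The authors also deposited shrunken log2 fold changes and adjusted p-values for each strain. Gene length, another deposited column, is the sum of exon bases and was used for levels per kilobase.

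Values were fitted as log2(value + 1), where 1 is the pseudocount, with limma 3.58.1 (R 4.3.3, eBayes trend, group means over 12 libraries, 8 residual degrees of freedom). Genes with a mean of at least 10 were kept, 14038 of the 20278 with any value above 0. The threshold was an adjusted p (Benjamini-Hochberg, over all of them) under 0.1, and each p measures only the spread between these libraries. The fit was tested on simulated data. Of 9 members 8 were fitted, and they carry no test. The 9 members, the lists of 102 related and 55 marker genes and the alternatives were chosen with earlier results of these data known. Named genes were up to 4 per list and strain in order of p, and any other gene was chosen after its values were seen. Sham columns carry the titles' numbers. TAC columns are numbered 4 to 6 and could be assigned only to their group. Tables and plots used Python 3.11.15, numpy 2.4.6, pandas 2.3.3, scipy 1.17.1 and matplotlib 3.10.9.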

Additional observations from a re-analysis of the deposited data

How the results depend on the processing

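Counts of related genes past the threshold depended most on the atrial covariate, the threshold and single libraries. TAC in Balb/cJ gave 31 calls, with linear Myl7 as a covariate 26, and with log2 Myl7 0 (9 at an unadjusted p under 0.05), where none of all 14038 genes passed either. TAC in Balb/cByJ gave 22, with log2 Myl7 14, with linear Myl7 3 and at an adjusted p under 0.05 7. The sham strains gave 10, with log2 Myl7 1 and at an adjusted p under 0.05 5. When 1 library was left out, the counts ran from 18 to 37 for TAC in Balb/cJ (18 without sham Balb/cJ 2, 20 without TAC Balb/cJ 6) and from 0 to 32 for TAC in Balb/cByJ (0 without sham Balb/cByJ 1 or 3, where 29 and 24 had an unadjusted p under 0.05, and 6 and 8 without TAC Balb/cByJ 5 and 6). They ran from 3 to 13 between the sham strains (5, 4 and 6 without sham Balb/cByJ 1, 2 and 3) and from 0 to 1 between the TAC strains (1 without TAC Balb/cByJ 4 or 6), and stayed at 0 for the interaction. Among all genes fitted, TAC in Balb/cByJ gave 1097 higher and 668 lower in the main fit. It gave 6 and 0 without sham Balb/cByJ 1, and 74 and 1 without sham Balb/cByJ 3. The loss of calls in these fits was thus not particular to the related genes. The cause of these shifts was not tested. With log2 Myl7 as a covariate the TAC difference in Balb/cJ turned to -0.62 for Adipoq, -0.79 for Cidec, -2.61 for Plin1 and -1.62 for Retn, and the sham strain difference to -2.44 for Adipoq, -2.62 for Cfd, -3.08 for Cidec, -4.59 for Plin1, -3.27 for Retn, -1.40 for Car3 and -1.05 for Cyp2e1. The interaction turned to 1.25 (Cyp2e1) to 4.99 (Plin1) over the same genes. The likeness of Myl7 (0.905) ran from 0.886 to 0.932. Pairing by replicate number was not seen. For this check each library's deviations from its group mean, not its values, were correlated across genes between same-numbered libraries of the strains. The r was -0.21, -0.07 and 0.17 for the sham libraries. For the TAC libraries, by column number, it was 0.06, 0.10 and -0.05. A replicate block, fitted to the sham groups only, gave 15 calls between the sham strains, the count that those groups gave without a block (15), and, as an alternative chosen after seeing the data, 0 between the TAC strains. The low values of Lep and Retn, and sham values near 0, limit the precision of their differences, and 3 libraries per group that differ several-fold limit all of them.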

Other observations

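Genes named here were chosen after their values were seen. TAC Balb/cByJ 5, the library with the highest values of 8 fat cell genes, was also the highest for 9 of the 19 related fat genes too low to be tested, among them Ucp1 at 70, Orm1 at 47, Adrb3, the fat cell adrenergic receptor, at 43, Lgals12 at 30, Slc7a10 at 23 and Otop1, a proton channel of brown fat, at 18. Tnnt3, a troponin of fast skeletal muscle, was at 199 in this library and at 189 in TAC Balb/cJ 6, and at 7 to 28 in the others. The rest of the skeletal muscle list did not share these levels. Tnni2 was at 83 in TAC Balb/cByJ 5 and at 31 in TAC Balb/cJ 6, and the remaining genes were at 0 to 23 in both.

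Pdk4, a kinase that turns the heart from glucose to fatty acids, had values of 1593 in TAC Balb/cJ 6 and 4652 in the one labelled TAC Balb/cByJ 6, and lay at 9608 or more in the other 10 libraries. Angptl4 was at 57 and 152 in the same pair. It lay at 81 to 160 in sham Balb/cJ, a range that holds the 152, and at 708 to 2022 in the other Balb/cByJ libraries. Adipoq in this pair was at 108 and 105, between the other libraries of each group, and Cidea was the lowest of its group in both, at 637 and 521.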
